A study of Mus musculus with 54 samples.

Results

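The collagen genes of the mouse were examined in hearts and livers with normal or altered fidelity of mitochondrial protein synthesis. They were taken by name, as every protein-coding gene called Col, a number, the letter a and a number. This rule used no expression value, but the members were chosen with earlier results of these data known. The rule gave 44 genes of the 54356 in each tissue. The mice were 20 weeks old, on a C57BL/6 background, and all had eaten a high-fat diet with 42% of its energy from fat, so that no group here was fed normal chow. Mrps12+/+ mice carried the wild-type mitochondrial ribosomal protein S12, Mrps12ep/ep mice were homozygous for an error-prone form of it and Mrps12ha/ha mice for a hyper-accurate form. There were 3 mice of each genotype for each tissue, and the forms are germline changes, carried by every cell. The Mrps12+/+ mice served as controls for each mutant, which ties those comparisons to one another.

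Collagens are the main structural proteins of the extracellular matrix. Each molecule is made of 3 chains wound into a helix, which requires a glycine at the start of every set of 3 residues. Fibrillar collagens, chiefly types I, III and V, form the tensile fibres that fibroblasts and, in the injured liver, activated stellate cells deposit. Type IV forms the sheet-like network of basement membranes, type VI forms beaded filaments around cells, and types XV and XVIII are basement membrane collagens whose ends release antiangiogenic fragments such as endostatin.

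The chain repeat that defines the family can be read from the coding sequence. All 44 genes held a run of at least 5 consecutive triplets of codons that opened with a glycine codon (GGN). In 9 genes the longest run passed 300 triplets, and these were the chains of types I, II, III, V and XI, with 338 in Col1a1, 344 in Col3a1 and 338 in Col11a2. Runs in the network and multiplexin chains were short and many: Col4a1 had 16, the longest of 40 triplets, and Col18a1 had 13, the longest of 30. The stretches below are shown because these 5 genes lead the levels or the comparisons described here. Each is 45 coding bases on GRCm38, from exons of the GENCODE vM21 transcript, with glycine codons that open a triplet in capitals. The first 3 open the longest run of the chain, and the last 2 cross its end, where the capitals stop.
Col1a1, chr11:94939451-94939732, plus strand, codons 168 to 182: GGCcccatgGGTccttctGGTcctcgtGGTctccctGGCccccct
Col3a1, chr1:45323762-45325368, plus strand, codons 164 to 178: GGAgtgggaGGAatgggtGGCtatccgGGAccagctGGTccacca
Col11a2, chr17:34051274-34051318, plus strand, codons 487 to 501: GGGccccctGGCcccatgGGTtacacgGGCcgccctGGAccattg
Col4a1, chr8:11244534-11245066, minus strand, codons 154 to 168: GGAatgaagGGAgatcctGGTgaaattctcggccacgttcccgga
Col18a1, chr10:77073800-77074391, minus strand, codons 1034 to 1048: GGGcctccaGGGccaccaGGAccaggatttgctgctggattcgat
In each of these except Col11a2 the coordinates span an intron, so the range is longer than the 45 bases printed.

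Values are normalized counts, which the authors scaled between the mice of a tissue but not for gene length, and each tissue was scaled on its own. The recovered depth was 11202961 to 51484404 reads per heart and 21238036 to 81518584 per liver. The shallowest heart, of Mrps12ha/ha mouse 2, also received the lowest weight, 0.167, when limma weighted the hearts by their agreement with the fit. The tissues matched their labels: 7 cardiomyocyte genes summed to 1998526.7 to 3538393.3 normalized counts in hearts against 42.2 to 7812.6 in livers, and 7 hepatocyte genes to 4722699.8 to 6500915.5 in livers against 215.1 to 15118.6 in hearts. Markers of other tissue parts moved between mice. The 7 atrial genes summed to 8948.8, 173234.4 and 127109.5 in Mrps12+/+ hearts, to 2446.9, 403497.2 and 98553.4 in Mrps12ep/ep hearts, and to 6162.8, 5698.9 and 12053.2 in Mrps12ha/ha hearts. Of these, Bmp10 was at 1051.5 in Mrps12+/+ heart 3, at 45047.2 in Mrps12ep/ep heart 2 and at 0.0 to 14.7 in all other hearts. The 7 skeletal muscle genes summed to 19216.8 and 20403.1 in Mrps12+/+ livers 1 and 2 and to 28.9 to 216.2 in all other livers.

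Heart RNA was led by basement membrane collagen. Per kilobase of exon, Col4a1 averaged 3831 normalized counts and Col4a2 3454 over the 9 hearts, and the ranges of these partners overlapped. Both encode the chains of the most widespread type IV network. The next gene, Col6a1 of the beaded filaments, was at 1148 per kilobase with no overlap with Col4a2. Behind it, overlapping one another, came the fibrillar genes Col3a1 at 1064 and Col1a1 at 726, with Col15a1, a multiplexin of the muscle basement membrane, at 839 between them. Of the 44 genes, 14 had a mean of at least 1000 normalized counts in the heart.

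Liver RNA was led by a single collagen. Col18a1, the endostatin precursor, for which hepatocytes are a known source, averaged 7344 normalized counts per kilobase and did not overlap the next gene. Col5a3, a minor chain of type V, followed at 799, Col14a1, a collagen that sits on the surface of fibrils, at 427, Col4a1 at 416, Col4a2 at 335 and Col3a1 at 236. Col18a1 alone made up 62.3% to 75.0% of all collagen counts of a liver, without regard to length. Type I, the main collagen of scar tissue, was low in these livers, at 110 per kilobase for Col1a1 and 76 for Col1a2. Of the 44 genes, 7 had a mean of at least 1000.

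**Figure D1:**
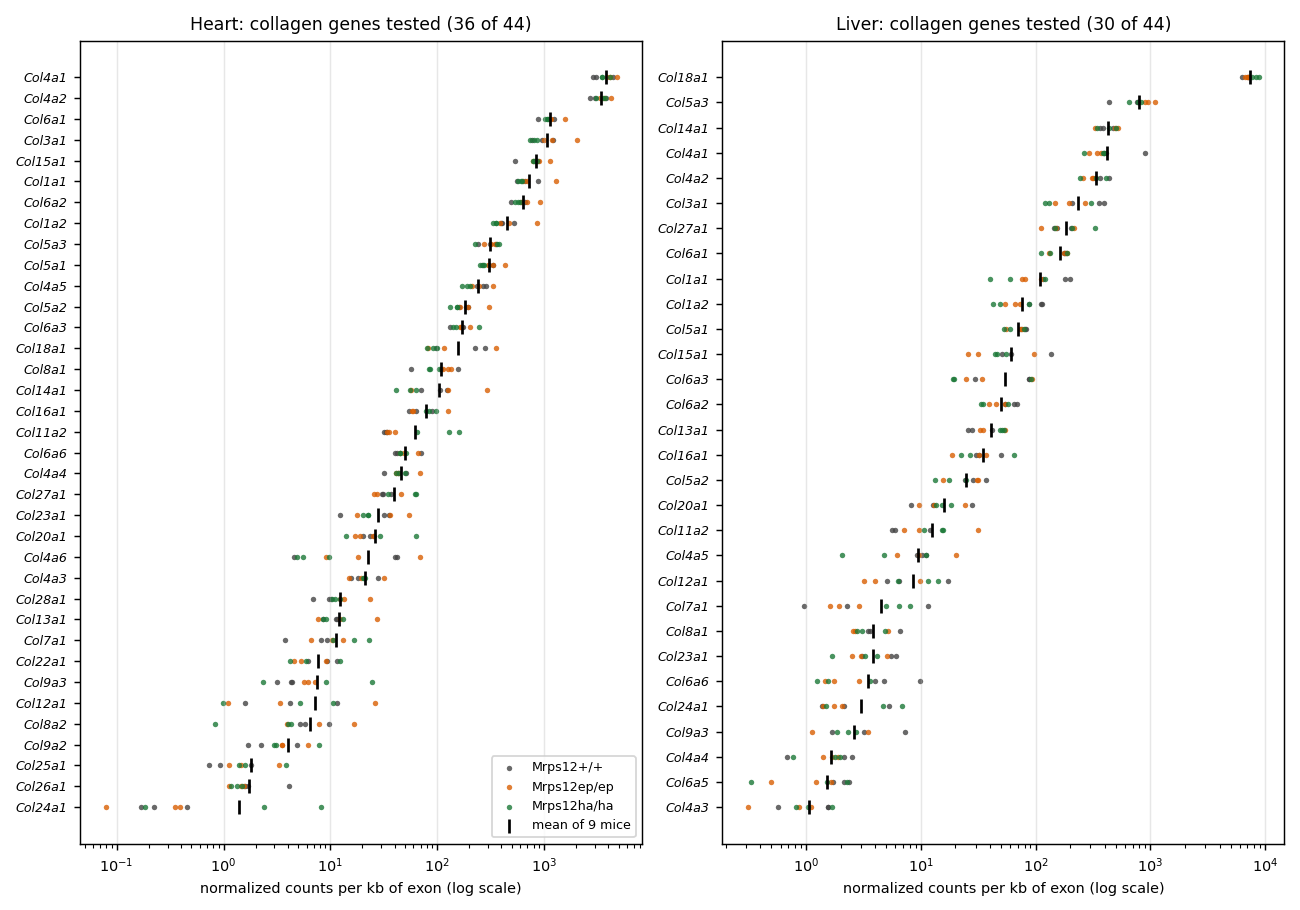
Normalized counts per kilobase of exon (log x axis) of the 36 collagen genes tested in the heart and the 30 tested in the liver, with a point for each of the 9 mice of a tissue, coloured by genotype, and a bar for their mean; values of 0 are not drawn. Col4a1 and Col4a2 stand above the other genes in the heart, and Col18a1 stands alone at the top in the liver; the tissues were normalized separately.

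Chains that are built into one molecule kept a narrow ratio in the heart and a wider one in the liver. In the heart the Col1a1 to Col1a2 ratio per kilobase ran from 1.370 to 1.794 over the 9 mice and the Col4a1 to Col4a2 ratio from 0.983 to 1.162. In the liver these ratios ran from 0.927 to 1.772 and from 0.956 to 2.044. The ratio of 2.044 came from Mrps12+/+ liver 3, where Col4a1 reached 6669.7 normalized counts, and in the other 8 livers it was at most 1.229. Col4a1 and Col4a2 lie head to head on opposite strands of chromosome 8, and their gene models overlap by 22 bases.

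The other end of the family was close to silent. Cartilage collagens such as Col2a1, the main chain of cartilage, and Col10a1, of growth plate cartilage, lay under the mean of 10 normalized counts set for testing. In the heart 36 of the 44 genes passed it, and the 8 that did not were Col2a1, Col6a4, Col6a5, Col9a1, Col10a1, Col11a1, Col17a1 and Col19a1. In the liver 30 passed, and the 14 others were Col2a1, Col4a6, Col6a4, Col8a2, Col9a1, Col9a2, Col10a1, Col11a1, Col17a1, Col19a1, Col22a1, Col25a1, Col26a1 and Col28a1. Col10a1 and Col19a1 were at 0 in every liver, and 3 genes in the heart and 4 in the liver had at most 3 reads in every mouse. The gene just inside the limit was Col24a1 in the heart, at a mean of 10.54, and Col9a3 in the liver, at 10.08; just outside were Col6a5 at 6.33 and Col25a1 at 8.03. In all 29 genes were tested in both tissues.

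Collagen genes together took 0.2996% ± 0.0392 (SD, n = 3) of all counts in Mrps12+/+ hearts, 0.3801% ± 0.0738 in Mrps12ep/ep hearts and 0.2902% ± 0.0209 in Mrps12ha/ha hearts. In livers they took 0.1484% ± 0.0014, 0.1377% ± 0.0037 and 0.1525% ± 0.0041 in the same order. The single heart above the rest was Mrps12ep/ep mouse 2, at 0.4654%. In bulk tissue, fewer cells of a type and less RNA per cell cannot be told apart.

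The map of all tested collagen genes by mouse shows each gene against its own mean, not its part in these shares.

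**Figure D2:**
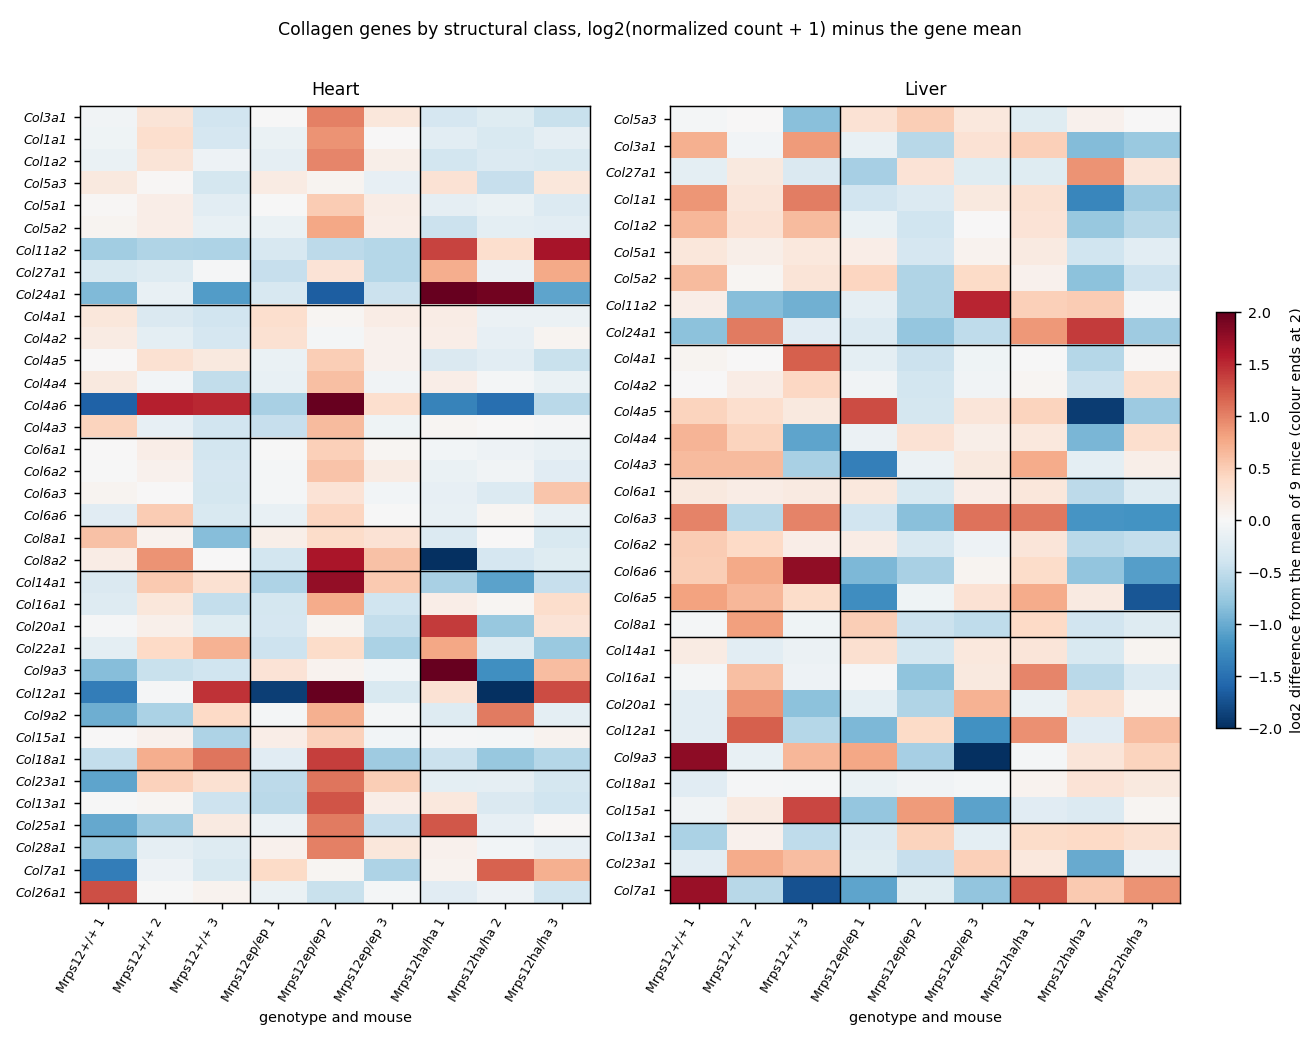
Difference of log2(normalized count + 1) from the mean of the gene over the 9 mice of a tissue (colour, ending at 2 in each direction), with tested collagen genes as rows grouped by structural class and mice as columns. Mrps12ep/ep heart 2 is above the mean for most genes, Col11a2 is above it in the Mrps12ha/ha hearts alone, and Col1a1 and Col1a2 are above it in the Mrps12+/+ livers, in Mrps12ha/ha liver 1 and, by a small margin, in Mrps12ep/ep liver 3.

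No collagen gene passed an adjusted p of 0.05 in any of the 6 comparisons with limma, and limma-voom on the recovered reads also called 0. limma-voom called 0.0187%, 0.0125% and 0.0187% of all genes tested in the 3 heart comparisons and 0%, 0% and 0.00653% in the 3 liver comparisons, in the order used below. With limma the background in the heart was 0.0311% of the 16057 genes tested were called in Mrps12ha/ha against Mrps12+/+, 0% in Mrps12ep/ep against Mrps12+/+ and 0.0249% in Mrps12ha/ha against Mrps12ep/ep. At an unadjusted p under 0.05 there were 4, 1 and 9 of the 36 collagen genes in these comparisons, against 19.7%, 1.69% and 17.9% of all genes tested. limma-voom gave 4, 1 and 7, against 23.9%, 3.11% and 21.7% of all genes in its own fit. The 9 of 36 came with limma on all hearts, and none of these counts is read as a result. With 3 mice a group the exact permutation test cannot give a p below 0.1.

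Collagens of types I and III in the heart were on average highest in Mrps12ep/ep mice and lowest in Mrps12ha/ha mice. Col1a1 was at 4325.4, 5790.8 and 3651.4 normalized counts in Mrps12+/+, at 4210.1, 8568.0 and 4605.2 in Mrps12ep/ep, and at 3972.3, 3735.9 and 4052.5 in Mrps12ha/ha hearts. Col1a2, its partner chain, was at 4923.1, 6495.9 and 5044.4, then 4797.5, 10644.6 and 5861.2, then 4191.4, 4463.7 and 4378.2. Col3a1, of the fine fibres around muscle cells, was at 9495.6, 11822.1 and 7663.7, then 9869.5, 19924.8 and 11593.4, then 7907.8, 8407.9 and 7269.6. All 3 genes were below every Mrps12ep/ep heart in every Mrps12ha/ha heart, and Mrps12ep/ep mouse 2 stood far above its group in each. Against Mrps12ep/ep the log2 fold change in Mrps12ha/ha was -0.75 for Col3a1 (SE 0.25, adjusted p 0.244, limma), -0.62 for Col1a2 (adjusted p 0.265, limma) and -0.49 for Col1a1 (adjusted p 0.332, limma). Col5a2, of the type V chains that nucleate fibrils, followed them at -0.54 (adjusted p 0.255, limma), with 1264.6 to 1482.9 in Mrps12ha/ha and 1555.3 to 2907.6 in Mrps12ep/ep hearts. Without Mrps12ep/ep mouse 2 these changes were smaller, at -0.45 for Col3a1, -0.29 for Col1a2, -0.17 for Col1a1 and -0.28 for Col5a2.

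In all 9 genes were lower in every Mrps12ha/ha than in every Mrps12ep/ep heart and 1 was higher, where 7.82% and 8.77% of all genes tested were. Besides those named, the 9 held Col4a5, a type IV chain, and Col5a1, Col6a1, Col6a2 and Col8a1, named here after their values were seen. Col6a1 and Col6a2 form the filaments of type VI and Col8a1 a short-chain network of vessels. Over the 36 genes the median log2 fold change was -0.19, against -0.02 over all genes tested, and 26 lay below 0. Without Mrps12ep/ep mouse 2, the heart with the highest atrial sum, the median was -0.08, and 4 of the 36 genes had an unadjusted p under 0.05, where 12.1% of all genes did. With the log2 atrial sum as a term of the fit, added after the data were seen, it was -0.12, and 3 of the 36 genes had an unadjusted p under 0.05, where 12.6% of all genes did.

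Mrps12ep/ep against Mrps12+/+ hearts gave the reverse sign with no call. The median over the collagen genes was 0.25, against -0.01 for all genes tested, with 29 of 36 above 0. It was 0.03 without Mrps12ep/ep mouse 2, so it rested on that heart. In that mouse the 9 fibroblast markers summed to 133879.7 normalized counts, against 66097.4 to 95990.8 in the other hearts. The activated fibroblast markers summed to 23450.0, against 4602.7 to 15893.8, and the mesothelial markers to 3539.0, against 410.8 to 2161.2. Of the 23450.0, Acta2, also a mural cell gene, made 15394.6 and Postn 5866.3. Their part in the result was not tested. Non-overlapping groups were few: 3 genes higher and 1 lower, where 4.4% and 3.64% of all genes tested were.

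The 3 higher were Col28a1, a beaded collagen of peripheral nerve, Col9a3, a cartilage chain that coats fibrils, and Col11a2. Col28a1 was at 33.6, 50.2 and 47.2 normalized counts in Mrps12+/+ and at 60.4, 115.4 and 66.3 in Mrps12ep/ep hearts, a log2 fold change of 0.83 (SE 0.30, adjusted p 1.0, limma) that was 0.55 without Mrps12ep/ep mouse 2. The Mrps12ha/ha hearts, at 60.7, 54.4 and 50.5, were also above every Mrps12+/+ heart. Col9a3 was at 12.1, 16.4 and 17.0 in Mrps12+/+ and 27.7, 23.8 and 21.8 in Mrps12ep/ep, but at 95.7, 9.1 and 35.3 in Mrps12ha/ha hearts. Col26a1, a little-studied collagen, was the one lower, at 33.6, 13.0 and 13.8 in Mrps12+/+ and 11.9, 9.3 and 12.7 in Mrps12ep/ep, and these values stand on 12 to 39 reads.

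In Mrps12ha/ha against Mrps12+/+ hearts Col11a2 had the smallest p of the collagen genes (limma), without passing the threshold. Col11a2, the alpha 2 chain of type XI, a fibrillar collagen known from cartilage, was at 217.0, 231.0 and 227.7 normalized counts in Mrps12+/+, at 280.3, 243.0 and 235.2 in Mrps12ep/ep, and at 892.8, 444.0 and 1104.4 in Mrps12ha/ha hearts. The groups did not overlap, and the lowest of the Mrps12ha/ha hearts was the shallow mouse 2. The log2 fold change against Mrps12+/+ was 1.75 (SE 0.29, adjusted p 0.113, limma) and against Mrps12ep/ep 1.59 (SE 0.29, adjusted p 0.179, limma). Without mouse 2 the Mrps12ha/ha against Mrps12+/+ change was 2.14 with an adjusted p of 0.000387 (limma), a setting in which 27% of all genes tested were called. The cartilage and valve markers, which include Acan and Comp, summed to 208.5, 903.2 and 650.3 in Mrps12+/+ and to 331.3, 359.3 and 572.7 in Mrps12ha/ha hearts, and Matn3 was at 0 throughout. Comp led this sum. Of the 5 tested genes of the list, 2 had an estimate above 0 in Mrps12ha/ha and 3, Comp among them, below 0. Cnmd was at 29.3, 61.4 and 53.5 in Mrps12+/+ and at 49.7, 81.5 and 150.8 in Mrps12ha/ha hearts, and Sox9 at 82.7, 93.4 and 67.3 and at 130.7, 108.7 and 91.3. Chad was at 2.6, 156.6 and 125.1 in Mrps12+/+ and at 0.0, 6.0 and 48.4 in Mrps12ha/ha hearts, and Acan at 2.6, 30.3 and 66.7 and at 5.5, 3.0 and 8.3. Their part in the result was not tested. Col2a1 and Col11a1, the partners of Col11a2 in cartilage, were at 0.9 to 5.5 and at 0.0 to 5.5 in the Mrps12+/+ and Mrps12ha/ha hearts.

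Without mouse 2, Col27a1 and Col9a3 also passed in Mrps12ha/ha against Mrps12+/+ hearts, and Col11a2, Col27a1 and Col20a1 in Mrps12ha/ha against Mrps12ep/ep hearts, where 23.2% of all genes tested did. Weighting the hearts by their agreement with the fit gave 4 and 9 collagen genes in these comparisons, with 34.7% and 39.3% of all genes. Col27a1, Col9a3 and Col20a1 are named after their values were seen. Col27a1, a fibrillar collagen with a long helix, was at 397.0, 409.2 and 482.4 normalized counts in Mrps12+/+ and at 809.9, 450.0 and 829.9 in Mrps12ha/ha hearts, a log2 fold change of 0.65 (adjusted p 0.247, limma), and 0.94 without mouse 2 (adjusted p 0.0231, limma). Col9a3 had a log2 fold change of 1.89 without mouse 2 (adjusted p 0.019, limma), where the value in that mouse, 9.1, stood on 3 reads.

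Among the genes whose mice did not overlap, 3 were higher and 6 lower in Mrps12ha/ha than in Mrps12+/+ hearts, against 11.1% and 10% of all genes tested. Col7a1, of the anchoring fibrils of skin, was at 38.8, 96.0 and 83.6 normalized counts in Mrps12+/+ and at 108.6, 235.6 and 170.1 in Mrps12ha/ha hearts, a log2 fold change of 1.25 (SE 0.42, adjusted p 0.213, limma). Mrps12ep/ep hearts overlapped both, at 134.7, 106.1 and 67.2. Col4a5, of the type IV network of the kidney and of muscle, was at 1588.8, 1944.1 and 1807.4 in Mrps12+/+ and 1292.2, 1365.1 and 1152.8 in Mrps12ha/ha (log2 fold change -0.49, SE 0.17, adjusted p 0.213, limma). Col14a1, on the surface of fibrils, was at 496.0, 872.1 and 750.3 in Mrps12+/+ and 390.2, 289.9 and 441.9 in Mrps12ha/ha (log2 fold change -0.90, adjusted p 0.317, limma). Col8a2, of the short-chain network, was at 25.8, 44.1 and 23.3 in Mrps12+/+ and 3.7, 18.1 and 19.4 in Mrps12ha/ha, and its log2 fold change of -1.33 was -0.64 without Mrps12ha/ha mouse 1. The mesothelial markers were also lower, with sums of 980.0 to 2161.2 in Mrps12+/+ and of 410.8 to 633.2 in Mrps12ha/ha hearts. The part of the mesothelium in the result was not tested. With the log2 atrial sum in the fit, Col14a1 was at -0.10 and Col4a5 at -0.28, nearer to 0 than without it. Col7a1, at 1.33, was farther from 0. The atrial sum was low in all Mrps12ha/ha hearts, so this fit cannot fully separate it from genotype. Col26a1 was at 11.0, 12.1 and 9.7 in Mrps12ha/ha hearts, also below every Mrps12+/+ heart, and its log2 fold change of -0.70 was -0.28 without Mrps12+/+ mouse 1. In Mrps12ha/ha hearts 1 and 2, 1 read stood for 1.8407 and 3.02 normalized counts, so Col8a2 and Col26a1 rest on few reads there. For Col26a1 the gap between 12.1 and the lowest Mrps12+/+ heart was smaller than 1 read.

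The leading pair of the heart overlapped between all genotypes. Col4a1 was at 33059.5, 23173.6 and 21710.0 in Mrps12+/+, 35840.3, 28928.9 and 31260.1 in Mrps12ep/ep and 31259.5, 26129.8 and 26010.2 in Mrps12ha/ha hearts, and Col4a2 at 25343.0, 19840.8 and 17911.5, then 27891.6, 22075.6 and 24055.8, then 24916.3, 20222.5 and 23475.6. The log2 fold changes in Mrps12ha/ha were 0.12 for Col4a1 (SE 0.19, adjusted p 0.729, limma) and 0.13 for Col4a2 (SE 0.17, adjusted p 0.664, limma).

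Col4a6, Col18a1 and Col24a1 varied widely between hearts of one genotype, and are named after their values were seen. Col4a6, a type IV chain of epithelial and smooth muscle basement membranes, was at 36.2, 336.6 and 323.3 normalized counts in Mrps12+/+, at 72.3, 549.7 and 143.5 in Mrps12ep/ep and at 44.2, 39.3 and 77.5 in Mrps12ha/ha hearts. Col18a1 was at 678.6, 1575.5 and 1991.7, then 809.3, 2474.4 and 582.1, then 701.3, 561.7 and 641.8. Col4a6 followed the order of the atrial sums given above in the Mrps12+/+ and Mrps12ep/ep hearts, and Col18a1 was likewise highest in Mrps12ep/ep mouse 2 and low in Mrps12+/+ mouse 1, but was lowest of its group in Mrps12ep/ep mouse 3, whose atrial sum was 98553.4. The part of the atrial tissue in these values was not tested. Col24a1, a fibrillar chain of developing bone, was at 62.6 and 18.1 in Mrps12ha/ha hearts 1 and 2 and at 0.6 to 3.5 in the other hearts, where it stood on 1 to 4 reads. In Mrps12ha/ha heart 2, 1 read stood for 3.02 normalized counts.

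**Figure D3:**
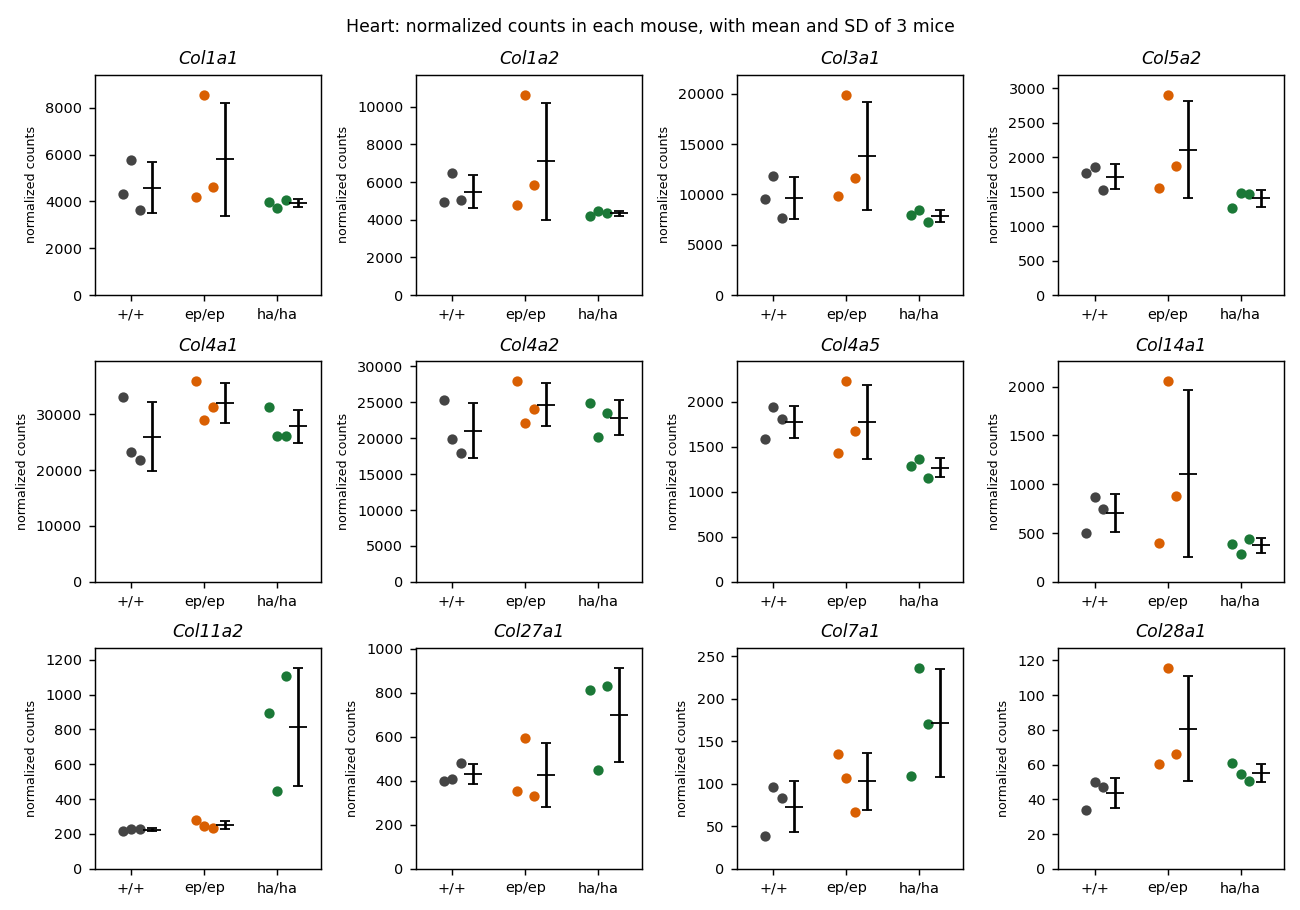
Normalized counts in each heart for 12 collagen genes, with points for mice and a bar for the mean and SD of 3 mice per genotype. Col11a2 is at 444.0 to 1104.4 in Mrps12ha/ha hearts and at or below 280.3 in all others, whereas Mrps12ep/ep mouse 2 is the high point of Col1a1, Col1a2, Col3a1, Col5a2 and Col14a1.

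The plot of the heart fits sets these changes beside those without Mrps12ha/ha mouse 2 and those with the atrial sum in the fit, where Col11a2 was at 1.74 against Mrps12+/+ (adjusted p 0.223, limma).

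**Figure D4:**
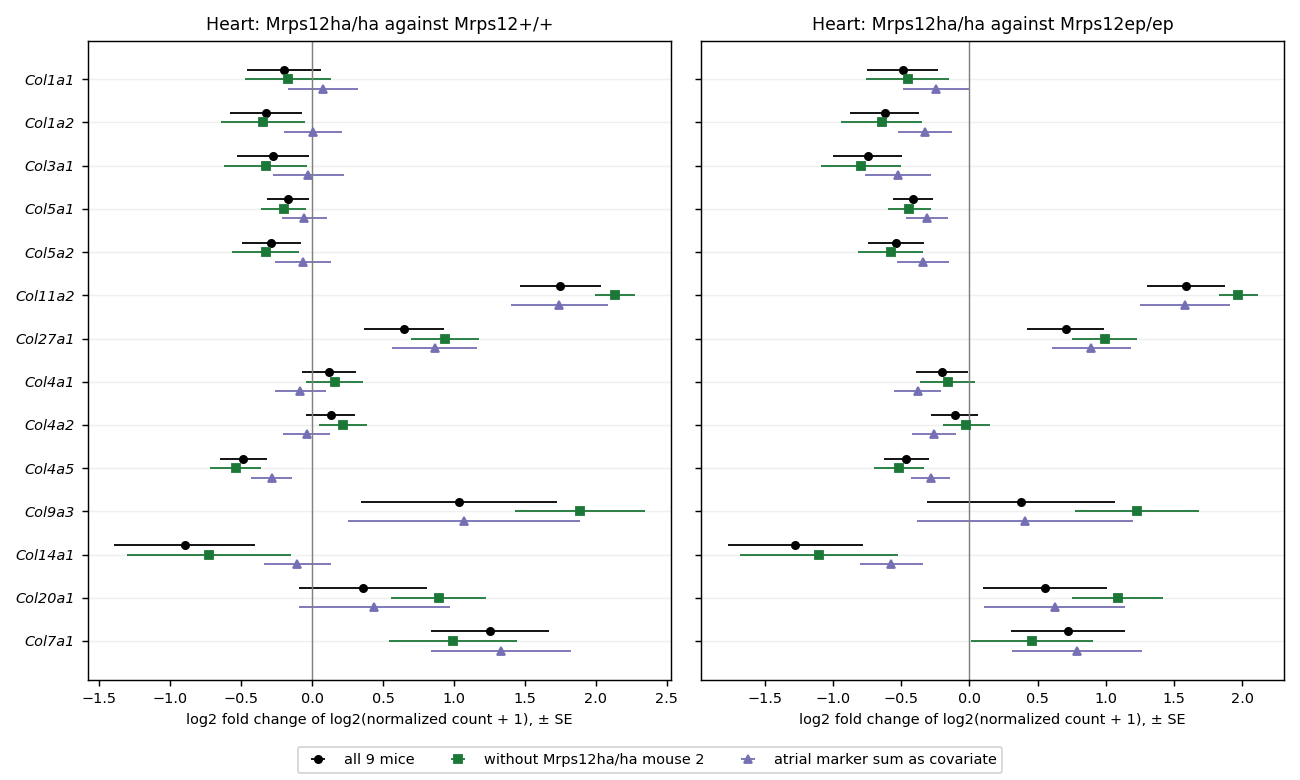
Log2 fold changes of 14 collagen genes in Mrps12ha/ha against Mrps12+/+ and against Mrps12ep/ep hearts (x axis, bars are SE), fitted with all 9 hearts, without Mrps12ha/ha mouse 2, and with the atrial marker sum as a covariate. Col11a2 lies above 1 in every one of these fits, and Col1a1, Col1a2, Col4a1 and Col4a2 cross 0 against Mrps12+/+ with the atrial covariate.

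In the liver the background for an adjusted p under 0.05 was 0.00653% of 15314 genes in each of the 3 comparisons. At an unadjusted p under 0.05 there were 7 of the 30 collagen genes in Mrps12ha/ha against Mrps12+/+, 4 in Mrps12ep/ep against Mrps12+/+ and 0 in Mrps12ha/ha against Mrps12ep/ep, where 14.1%, 9.74% and 8.62% of all genes were. limma-voom gave 11, 5 and 2, where 14.2%, 9.29% and 7.82% of all genes did in its own fit. The medians over the collagen genes were -0.32, -0.41 and 0.06 on the log2 scale, in this order, and over all genes -0.017, -0.007 and -0.0017. Without Mrps12ha/ha mouse 2 the first of these was -0.18.

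Type I collagen was lower in both mutants than in Mrps12+/+ livers, without passing the threshold. Col1a1 was at 1187.3, 763.3 and 1305.2 normalized counts in Mrps12+/+, at 495.4, 533.4 and 732.4 in Mrps12ep/ep and at 797.3, 260.0 and 394.1 in Mrps12ha/ha livers. Col1a2 was at 1421.6, 1095.7 and 1394.9, then 818.4, 677.2 and 901.1, then 1080.5, 531.0 and 608.2. For Col1a2 every mutant liver was below every Mrps12+/+ liver, and for Col1a1 every liver but Mrps12ha/ha mouse 1. The log2 fold change of Col1a1 was -1.28 in Mrps12ha/ha (SE 0.37, adjusted p 0.198, limma) and -0.87 in Mrps12ep/ep (adjusted p 0.502, limma); that of Col1a2 was -0.88 (SE 0.25, adjusted p 0.188, limma) and -0.71 (adjusted p 0.456, limma).

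Col3a1 followed with more overlap. It was at 3493.9, 2051.5 and 3851.3 normalized counts in Mrps12+/+, at 1933.2, 1459.3 and 2618.9 in Mrps12ep/ep and at 2984.6, 1175.3 and 1278.9 in Mrps12ha/ha livers, a log2 fold change of -0.87 in Mrps12ha/ha (SE 0.38, adjusted p 0.341, limma). Of the beaded filaments, all 5 tested genes had an estimate below 0 in both mutants. Col6a6 was at 36.4, 43.7 and 89.7 in Mrps12+/+, at 13.3, 15.9 and 26.6 in Mrps12ep/ep and at 33.3, 14.3 and 11.4 in Mrps12ha/ha livers (log2 fold change -1.50 and -1.51, adjusted p 0.456 and 0.256, limma). Col6a5 was at 22.4, 20.2 and 16.3 in Mrps12+/+ and at 4.7, 11.6 and 15.5 in Mrps12ep/ep livers, but overlapped in Mrps12ha/ha at 21.4, 14.3 and 3.1.

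Marker sums of the cells that make type I collagen overlapped for stellate cells, and those of fibroblasts were below every Mrps12+/+ liver in every Mrps12ha/ha liver. The 8 stellate cell markers summed to 13284.8 to 16835.5 in Mrps12+/+, 12899.9 to 18613.1 in Mrps12ep/ep and 13387.2 to 17557.9 in Mrps12ha/ha livers. Ecm1 led the stellate sum in every liver, with values between 7050.5 and 10854.8, so the sum says little of the other markers. In each mutant 5 of the 8 had an estimate below 0 and 3 above 0 against Mrps12+/+, and for 0 of them the mice did not overlap. Des was at 1181.7 and 1831.5 in Mrps12+/+ livers 1 and 2 and between 214.7 and 472.0 in all other livers. The fibroblast markers summed to 10349.9 to 11818.9 in Mrps12+/+, 7207.5 to 10524.6 in Mrps12ep/ep and 7720.2 to 9536.6 in Mrps12ha/ha livers. Dcn led this sum, at 8652.3, 7562.2 and 8261.1 in Mrps12+/+ and 6804.5, 6057.5 and 7026.5 in Mrps12ha/ha livers. It was the 1 of 8 tested fibroblast markers with every Mrps12ha/ha liver below every Mrps12+/+ liver, where 9.81% of all genes tested were. All 8 estimates were below 0, but Dpt reached 423.6 in Mrps12ha/ha liver 1, above every Mrps12+/+ liver. The skeletal muscle genes were high in Mrps12+/+ livers 1 and 2, and the adipocyte genes Adipoq, Plin1 and Lep were at 118.1, 110.8 and 203.8 in Mrps12+/+ liver 2, at 34.3, 24.5 and 30.1 in liver 1 and at 0.0 to 6.5 in all other livers. In Mrps12+/+ liver 3 the sum of the adipocyte list was 9227.9, of which Cidec, also a lipid droplet gene of the fatty liver, made 7770.3. Their part in the result was not tested.

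The type IV pair was below every Mrps12+/+ liver in every Mrps12ep/ep liver. Col4a1 was at 3043.4, 2949.0 and 6669.7 normalized counts in Mrps12+/+, at 2557.2, 2164.7 and 2745.4 in Mrps12ep/ep and at 2898.9, 1968.4 and 2950.8 in Mrps12ha/ha livers. Col4a2 was at 2195.4, 2416.2 and 2893.4, then 2064.1, 1696.3 and 2073.0, then 2242.0, 1619.0 and 2736.6. The log2 fold changes in Mrps12ep/ep were -0.66 for Col4a1 (adjusted p 0.514, limma) and -0.36 for Col4a2 (adjusted p 0.556, limma), and without Mrps12+/+ liver 3 they were -0.27 and -0.25. In Mrps12ha/ha the mice overlapped those of Mrps12+/+ for both.

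Genes that were higher went apart from these. Col18a1 was at 44052.1, 50700.6 and 49963.0 normalized counts in Mrps12+/+, at 46568.2, 48861.4 and 49757.5 in Mrps12ep/ep and at 53900.7, 61710.6 and 58527.5 in Mrps12ha/ha livers. Every Mrps12ha/ha liver was above every other liver, yet the log2 fold change of 0.27 (SE 0.12, adjusted p 0.344, limma) did not pass. Col18a1 took 71.9% of the collagen counts in Mrps12ha/ha and 64.6% in Mrps12+/+ livers on average. Col13a1, a collagen that spans the cell membrane, was at 118.2, 193.3 and 128.8 in Mrps12+/+ and at 235.6, 241.6 and 225.6 in Mrps12ha/ha livers (log2 fold change 0.70, SE 0.25, adjusted p 0.265, limma). Col5a3 was at 5171.7, 5330.4 and 2974.1 in Mrps12+/+ and at 6502.8, 7424.9 and 6145.6 in Mrps12ep/ep livers (log2 fold change 0.62, SE 0.21, adjusted p 0.456, limma, and 0.35 without Mrps12+/+ liver 3), and in Mrps12ha/ha livers at 4467.3, 5626.8 and 5345.3, below every Mrps12ep/ep liver. Col7a1 was at 83.3, 51.2 and 66.5 in Mrps12ha/ha and at 16.5, 29.6 and 20.0 in Mrps12ep/ep livers (log2 fold change 1.57, SE 0.74, adjusted p 0.615, limma), while a Mrps12+/+ liver reached 118.9.

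In the liver non-overlapping groups counted 2 higher and 2 lower in Mrps12ha/ha against Mrps12+/+, 1 and 6 in Mrps12ep/ep against Mrps12+/+, and 2 and 1 in Mrps12ha/ha against Mrps12ep/ep. The background was 10% and 9.81%, then 6.49% and 6.28%, then 8.82% and 9.01% of all genes tested. The 6 of 30 lower in Mrps12ep/ep livers were Col1a1, Col1a2, Col4a1, Col4a2, Col6a5 and Col6a6, a larger share than in the background. They hold the partner chains Col1a1 and Col1a2, and Col4a1 and Col4a2, so they are not 6 separate genes. For Col6a5 the groups parted by a small margin. None of these counts is read as a result.

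**Figure D5:**
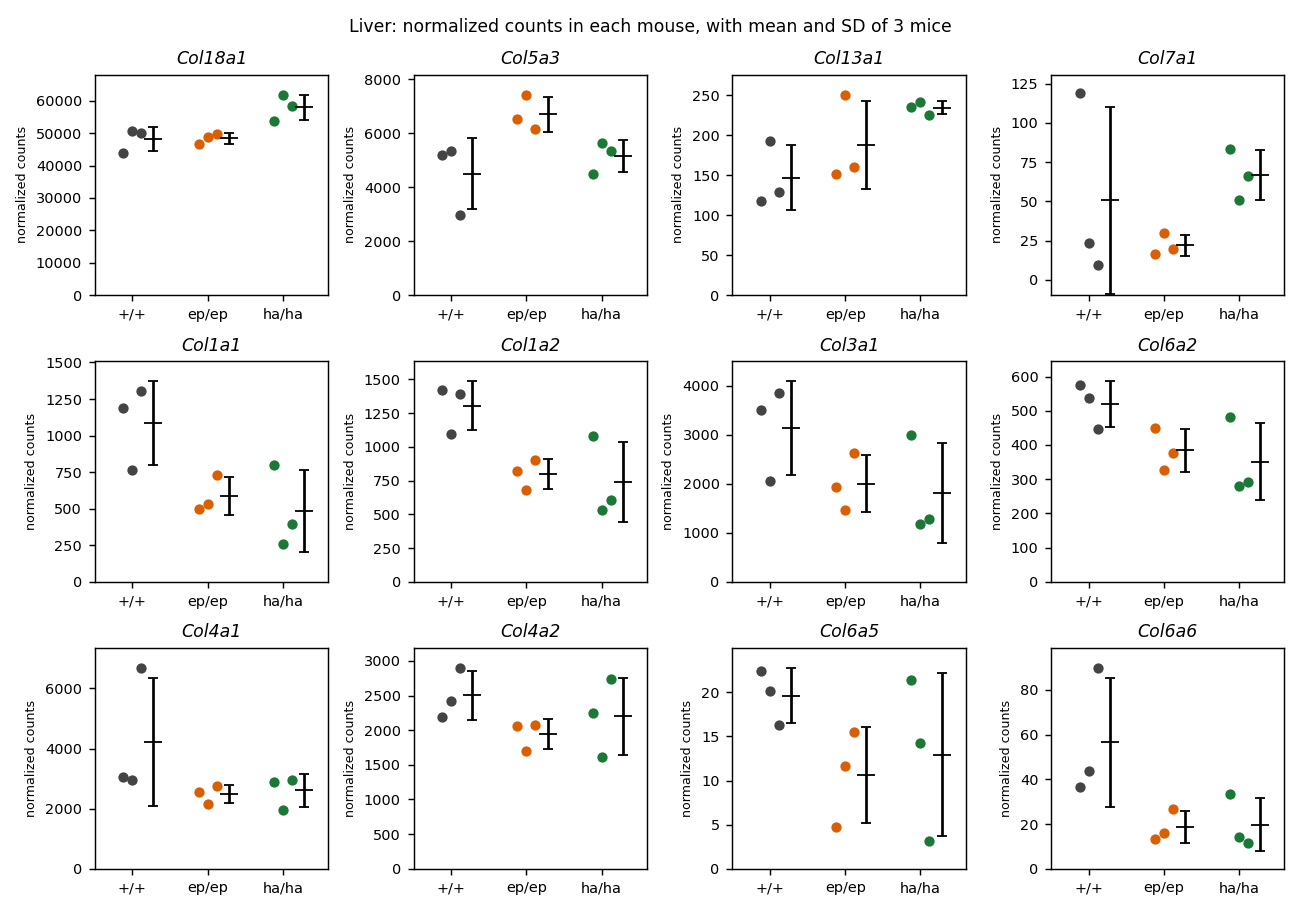
Normalized counts in each liver for 12 collagen genes, with points for mice and a bar for the mean and SD of 3 mice per genotype. Col18a1 is at 53900.7 to 61710.6 in Mrps12ha/ha livers and at or below 50700.6 in the others, and Col1a2 is at or above 1095.7 in Mrps12+/+ livers and at or below 1080.5 in all mutant livers.

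Genes that make, trim and bind collagen gave no call either: 0 of the genes of the lists for synthesis, processing and crosslinking, degradation, receptors, matrix partners and fibrosis signals passed an adjusted p of 0.05 in any comparison (limma), and limma-voom also called 0. These lists had 21, 13, 14, 10, 24 and 14 tested genes in the heart and 21, 10, 12, 9, 24 and 14 in the liver. At an unadjusted p under 0.05 there were 3, 3, 2, 2, 5 and 6 in Mrps12ha/ha against Mrps12+/+ hearts, 1, 0, 0, 0, 1 and 0 in Mrps12ep/ep against Mrps12+/+ hearts and 4, 3, 2, 3, 5 and 6 in Mrps12ha/ha against Mrps12ep/ep hearts. In the liver these counts were 1, 0, 2, 1, 4 and 1, then 1, 0, 0, 1, 4 and 3, then 1, 0, 1, 1, 0 and 2. The shares of all genes tested were 19.7%, 1.69% and 17.9% in the heart and 14.1%, 9.74% and 8.62% in the liver, in this order of comparisons, and the list counts are not read as results. In Mrps12ha/ha against Mrps12+/+ hearts the mice did not overlap for 0, 0, 3, 2, 4 and 2 genes of these lists that were higher. They did not for 2, 3, 0, 0, 3 and 4 that were lower, where 11.1% and 10% of all genes tested were. The genes named next are a part of these and do not stand for the lists. Hspg2, the perlecan of basement membranes, was at 24971.0, 24987.1 and 19976.2 normalized counts in Mrps12+/+ and at 42261.7, 28382.8 and 41998.9 in Mrps12ha/ha (log2 fold change 0.67, SE 0.20, adjusted p 0.207, limma). Ccn2, a matricellular factor of fibrosis, was at 3818.2, 10101.2 and 11849.0 in Mrps12+/+ and at 2396.7, 3038.2 and 3050.5 in Mrps12ha/ha. Postn, of activated fibroblasts, was at 2436.1, 2798.9 and 2889.1 in Mrps12+/+ and at 1717.4, 1340.9 and 2226.1 in Mrps12ha/ha. P4hb, a subunit of the prolyl hydroxylase that stabilizes the helix, was at 8374.5, 8888.2 and 9025.3 in Mrps12+/+ and at 6389.2, 8208.6 and 6710.9 in Mrps12ha/ha.

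In Mrps12ep/ep against Mrps12+/+ hearts, Sparc, a chaperone-like partner that binds collagen, was at 17232.9, 15778.7 and 13462.7 in Mrps12+/+ and 20958.4, 22908.4 and 17633.4 in Mrps12ep/ep (log2 fold change 0.40, SE 0.17, adjusted p 1.0, limma). In the liver P4ha1, the catalytic chain of the same hydroxylase, was at 1465.7, 698.6 and 613.1 in Mrps12+/+, at 974.4, 1064.6 and 1089.7 in Mrps12ep/ep and at 459.3, 555.6 and 511.5 in Mrps12ha/ha livers. Its log2 fold change in Mrps12ha/ha was -0.75 against Mrps12+/+ (SE 0.28, adjusted p 0.282, limma) and -1.04 against Mrps12ep/ep (SE 0.28, adjusted p 0.417, limma). Thbs1, a matricellular protein that activates TGF-beta, was at 270.1, 146.4 and 278.8 in Mrps12+/+ and at 114.2, 57.3 and 70.7 in Mrps12ha/ha livers (log2 fold change -1.51, SE 0.37, adjusted p 0.15, limma).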

How the data were processed

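Collagen genes were read from tables of deposited score values, which are normalized counts the authors made with DESeq2 from Salmon 1.1.0 estimates imported by tximport (GENCODE vM21, GRCm38.p6, library type ISR, mitochondrial transcripts left out), after Trim Galore 0.4.1, cutadapt 1.18 and FastQC 0.11.8. The 54 libraries are 3 technical libraries per mouse and tissue, and each column was taken as their pool for 1 mouse; the methods, however, say that biologically independent replicates were pooled, so whether a column is 1 mouse is a doubt on which every n = 3 rests. In all columns low values were whole multiples of 1 step, taken as 1 read. Deposited tables of the authors' fold changes, p-values and adjusted p-values were not used.

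The log2 of the value plus 1 was fitted with limma 3.58.1 (R 4.3.3, lmFit, eBayes with trend), all 3 genotypes of a tissue together, for genes with a mean of at least 10, with Benjamini-Hochberg adjustment over all genes tested and a threshold of 0.05. limma-voom on the recovered reads and the heart fit with the atrial sum were added after the data were seen. Named were 5 core genes, and per comparison up to 6 with the largest change among those whose mice did not overlap. Other collagen genes are marked. Of the related lists only a part of the genes whose mice did not overlap is named, so not every list or comparison has a named gene. The members and lists were chosen with earlier results of these data known. Sequences came from the GENCODE vM21 transcripts, and Python 3.11.15 did the rest. The script was tested on simulated data.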

Additional observations from a re-analysis of the deposited data

How the results depend on the processing

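Collagen genes called at an adjusted p of 0.05 stayed at 0 under all alternatives run except array weights and the fits without Mrps12ha/ha heart 2. With array weights there were 4 in Mrps12ha/ha against Mrps12+/+ hearts and 9 in Mrps12ha/ha against Mrps12ep/ep hearts, with 32 and 37 genes of the related lists, where 34.7% and 39.3% of all genes tested were called. Leaving out 1 heart gave 0 to 3 collagen genes in each of these comparisons and 0 to 18 and 0 to 16 related genes; the highest counts came without Mrps12ha/ha mouse 2. In Mrps12ha/ha against Mrps12ep/ep livers 1 related gene was called when only the 2 genotypes were fitted. Leaving out 1 mouse moved the median log2 fold change of the collagen genes between -0.1075 and 0.1004, 0.029 and 0.3646, and -0.2936 and -0.0785 in the heart, in the order Mrps12ha/ha against Mrps12+/+, Mrps12ep/ep against Mrps12+/+ and Mrps12ha/ha against Mrps12ep/ep. In the liver it moved between -0.5208 and -0.1751, -0.4182 and -0.2615, and -0.1955 and 0.1401. Without the 100 highest genes, collagens took 0.4403%, 0.5508% and 0.4507% of heart counts in Mrps12+/+, Mrps12ep/ep and Mrps12ha/ha mice, and 0.2613%, 0.2513% and 0.2812% of liver counts.

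Of 800 alternative values for 52 named gene and comparison pairs, 780 kept their direction and side of the threshold, 8 newly passed it and 12 changed sign. With the atrial sum, Mrps12ha/ha against Mrps12+/+ hearts gave 0.074 for Col1a1, 0.0078 for Col1a2, -0.0822 for Col4a1 and -0.0396 for Col4a2. Leaving out 1 mouse moved Mrps12ep/ep against Mrps12+/+ hearts between -0.0331 and 0.4793 for Col1a1 and between -0.0378 and 0.537 for Col1a2, the low ends without Mrps12ep/ep mouse 2. It moved Mrps12ha/ha against Mrps12ep/ep livers between -0.6674 and 0.0045 for Col3a1 and between -0.4807 and 0.0311 for Col1a2, the high ends without Mrps12ha/ha mouse 2. For Col4a1 the range was -0.0523 to 0.2396 and for Col4a2 -0.0232 to 0.3552, the low ends without Mrps12ha/ha mouse 3. The causes were not tested.

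With the replicate number as a block, 0 collagen genes were called in every comparison, and 3, 0 and 4 genes of all were in the heart and 7, 9 and 6 in the liver. Deviations of mice with the same number correlated between -0.231 and 0.578 in the heart and between -0.133 and 0.164 in the liver. The highest, 0.578 and 0.409, were those of mice 1 and 2 in Mrps12ep/ep against Mrps12+/+ hearts. The labels do not say that the numbers pair the mice, and they were not taken to do so. edgeR and DESeq2 were planned and not run on the recovered reads, on which limma-voom was run in their place. Depth limits the low genes: in the shallowest heart Col9a3 stood on 3 reads.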
